A study of Sus scrofa with 9 samples.

Results

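Aggrecan (ACAN), stimulator of chondrogenesis (SCRG1), C1q and TNF related protein (C1QTNF3) and matrix Gla protein (MGP), genes associated with cartilage, were followed in additional molar germs of the Wuzhishan miniature pig. Every probe set whose single platform symbol was 1 of these names was taken, which gave 5 of 23999 probe sets tested and 4 of the 6765 genes that had 1 symbol. ACAN had 2 probe sets and the others had 1 each. The genes were selected on their measured signals over the stages of these same arrays, so those signals and their changes are a description and carry no test.

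The germs were taken with the attached dental lamina from the mandible at embryonic day (E) 50, E60 and E70, and each stage had 3 arrays. The first additional molar (M1) had the form of a cap at E50, of a bell at E60 and of a late bell at E70, and the germ of the second (M2) was present from E60. The stages differ in age alone as far as the labels say, with no treatment or allele, and the cell types within a germ were not separated. RNA was extracted from pooled germs that had been collected within a stage and litter. Each array title carries the word biological beside its replicate number, and the paper's methods mention biological triplicates. Neither source says whether separate litters or separate pools lie behind the 3 arrays of a stage. SDs and p-values therefore measure only the spread between these arrays, which may still be technical.

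In cartilage, aggrecan is the large proteoglycan whose chondroitin sulfate chains hold water, and link protein fixes it to hyaluronan between fibrils of type II collagen. SCRG1 is a small secreted protein whose RNA rises as precursor cells become chondrocytes, and C1QTNF3 is a secreted protein with a C1q domain, first described in growing cartilage and also made by fat cells. MGP is a vitamin K dependent protein that holds back calcification of cartilage and artery walls, and fibroblasts and smooth muscle cells make it too. Meckel's cartilage, the rod of the embryonic mandible, lies near the tooth germs.

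The E50 arrays stood apart. Arrays of a stage correlated with each other at 0.605 to 0.683 in the E50 group, at 0.902 to 0.914 in the E60 group and at 0.901 to 0.921 in the E70 group (Pearson's r over 23999 probe sets on the log2 scale). For the control EF1A, the 3′ end read 49.3 to 55.8 times the 5′ end at E50, whereas at E60 this ratio lay between 1.42 and 1.56 and at E70 between 1.35 and 1.47. The hybridisation spike-in controls had geometric mean signals of 50822 to 65176 at E50, against 3573 to 3740 at E60 and 2764 to 3745 at E70. Array background, the 95th percentile of 23 control probe sets for foreign or bacterial sequence, spanned 77.7 to 379 at E50. At E60 it spanned 37.9 to 54.4, and at E70 38.1 to 55.8. Centring each array on its median moved the median change of E60 against E50 by 0.77 on the log2 scale, and quantile normalization moved it by 0.18. For E70 against E60 these shifts were smaller, -0.07 and -0.04. The part of RNA quality and of these array differences in the E50 values was not tested.

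The 4 genes had their lowest level at E70, ACAN by its brighter probe set, and differed in where they stood before it. MGP and SCRG1 were highest at E50 and lower at each later stage, C1QTNF3 was highest at E60, and the brighter ACAN probe set was level between E50 and E60 as deposited, though higher at E60 after either scaling. At E70 the arrays of MGP, SCRG1, C1QTNF3 and that ACAN probe set all lay below their E60 and E50 arrays.

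**Figure D1:**
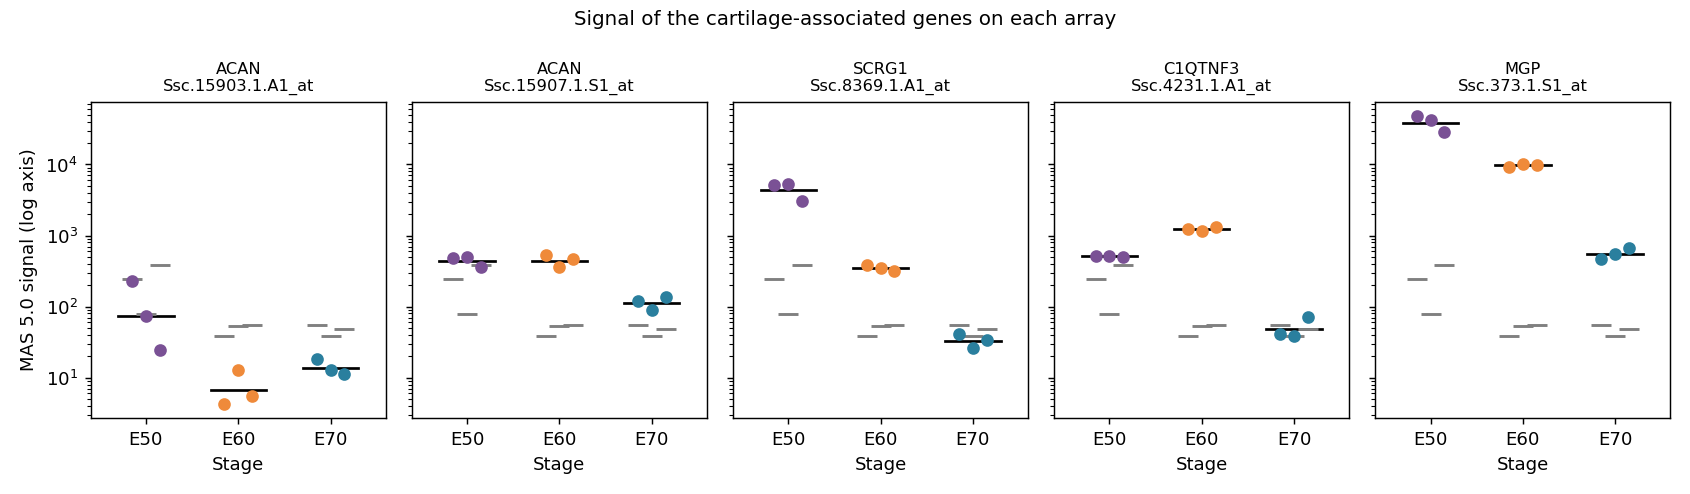
MAS 5.0 signal (log axis) of the 5 probe sets on the 9 arrays by stage. Points are arrays, black lines geometric means of 3 arrays and grey dashes the background of each array. SCRG1 lies between 26.2 and 40.5 at E70, below background, while MGP stays between 472 and 663, and the left ACAN probe set never passes background.

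Among the matrix components, the brighter ACAN probe set (suffix S1_at) had signals of 476, 503 and 364 at E50, 526, 356 and 461 at E60, and 121, 88.8 and 134 at E70. The E50 and E60 arrays overlapped, the E70 arrays lay below both, and 1 value, the E50 array of replicate 3, was under that array's background. Geometric means were 443, 442 and 113 at E50, E60 and E70, with SDs of 0.25, 0.29 and 0.31 on the log2 scale (n = 3 each). E70 was 3.91-fold lower than E60, a log2 change of -1.97 (SE 0.28). Between E60 and E50 the change was -0.00 (SE 0.28) as deposited, 0.77 after median centring and 0.37 after quantile normalization, so no direction is given for it.

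The dimmer ACAN probe set (suffix A1_at) read 227, 74.5 and 24.5 at E50, 4.27, 12.6 and 5.58 at E60, and 18.3, 12.8 and 11.2 at E70. All 9 values were under the background of their arrays, so it gives no fold. Its correlation with the brighter one was 0.20 over the 9 arrays and -0.79 over the 6 arrays of E60 and E70, where its fitted change was 1.04 (SE 0.80) and only 0.06 with signals floored at 16. The pair of ACAN probe sets therefore did not agree, and the description of ACAN rests on the brighter one.

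MGP, the inhibitor of calcification, had signals of 47779, 42732 and 28935 at E50, 9069, 10068 and 9954 at E60, and 472, 554 and 663 at E70. No stage overlapped another, and all 9 arrays were above background. Geometric means were 38947, 9686 and 558 at E50, E60 and E70, with SDs of 0.38, 0.08 and 0.24 on the log2 scale (n = 3 each). E60 was 4.02-fold lower than E50, a log2 change of -2.01 (SE 0.27) that was -1.23 after median centring and -1.54 after quantile normalization. E70 was 17.4-fold lower than E60, a change of -4.12 (SE 0.27), the 23rd lowest of 23999. The lowest E60 array was 13.7 times the highest E70 array.

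Among the secreted signals, SCRG1 had 5081, 5310 and 3098 at E50, 380, 347 and 317 at E60, and 40.5, 26.2 and 34.3 at E70. The stages did not overlap, and the 3 arrays of E70 were below background, so only a bound holds there. E60 was 12.6-fold lower than E50, a log2 change of -3.66 (SE 0.30), with -2.88 after median centring and -3.56 after quantile normalization. Against the E70 background, E70 was at least 7.42-fold lower than E60 and at least 93.6-fold lower than E50. After median centring these bounds were 7.77 and 57.2, and after quantile normalization 8.82 and 104. The SDs were 0.43, 0.13 and 0.32 on the log2 scale at E50, E60 and E70 (n = 3 each).

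C1QTNF3, the other secreted protein, was the exception before E70. Its signals were 518, 511 and 494 at E50, 1218, 1173 and 1299 at E60, and 41.2, 38.8 and 71.3 at E70, with the first E70 array below background and the other two above it. The 3 stages did not overlap, and the arrays of E50 and of E60 lay close together, with SDs of 0.03 and 0.07 on the log2 scale against 0.48 at E70 (n = 3 each). E60 was 2.42-fold higher than E50, a log2 change of 1.28 (SE 0.28), with 2.05 after median centring and 1.34 after quantile normalization. E70 was 25.3-fold lower than E60, a log2 change of -4.66 (SE 0.28). The E70 level lay close to background, with a geometric mean signal of 48.5 beside a background of 46.7. With each E70 array set to its background where that was higher, E70 was 22.9-fold lower than E60.

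Across all 23999 probe sets limma called 7.85% higher and 10.6% lower in E60 than in E50, and 0.0833% higher and 0.338% lower in E70 than in E60 (Benjamini-Hochberg adjusted p under 0.05). Median centring turned the split for E60 against E50 from 1884 higher and 2552 lower into 4679 higher and 911 lower. Of the 5 probe sets, 1 was past this threshold upwards and 3 downwards for E60 against E50, including the ACAN probe set below background, and 4 were past it downwards for E70 against E60. The median log2 change over the 4 genes, ACAN by its brighter probe set and SCRG1 at its bound for E70, was -1.01 for E60 against E50 and -3.51 for E70 against E60, beside -0.18 and 0.05 over all probe sets. The genes were selected on these values, so nothing is read from these counts. In these bulk samples, fewer cells of a type and less RNA per cell cannot be told apart.

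**Figure D2:**
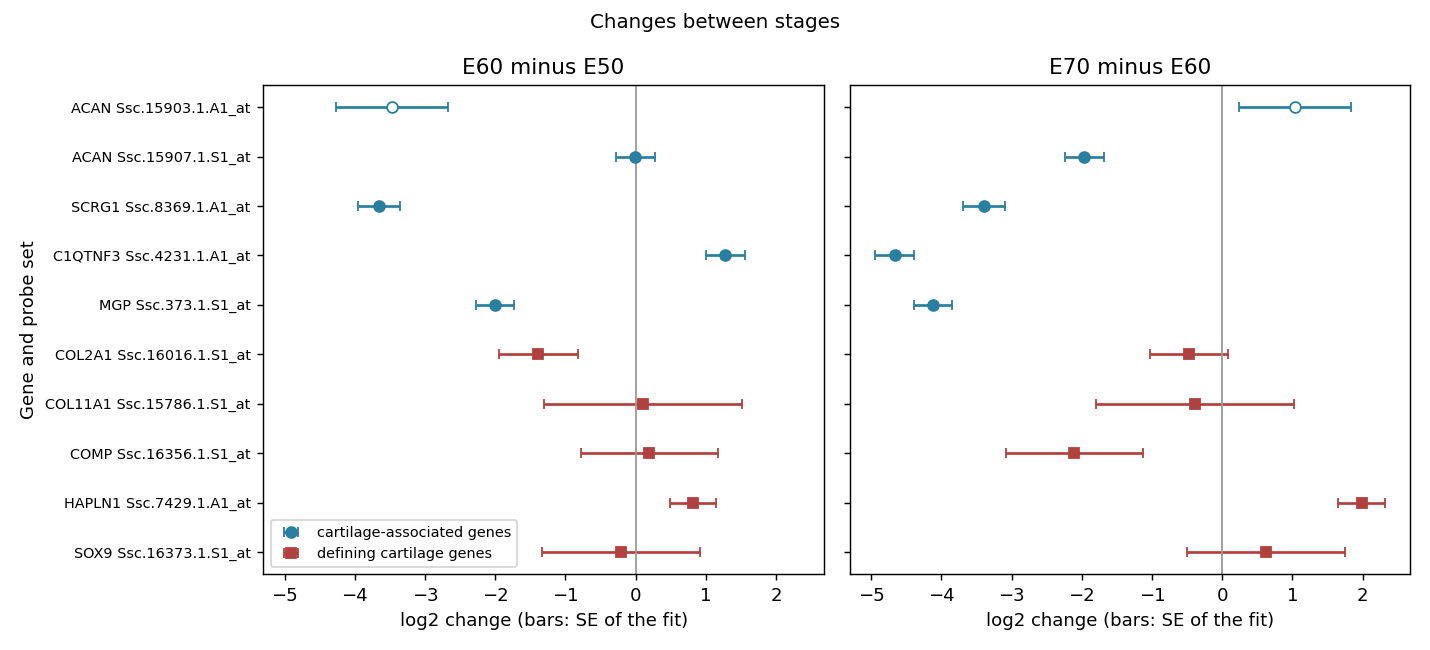
Fitted log2 changes (x axis, bars are SE) of the 5 probe sets and of 5 defining cartilage genes, for E60 minus E50 (left) and E70 minus E60 (right). The open circle is the ACAN probe set below background, and SCRG1 at E70 was below background too, so its right-hand value is no estimate. On the right 4 circles lie at or below -1.97, while HAPLN1 stands at 1.98.

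No defining gene of cartilage was called lower for E70 against E60. COL2A1, the type II collagen chain, had signals of 322, 334 and 754 at E50, 176, 198 and 130 at E60, and 143, 55.4 and 213 at E70. It was above background on all 9 arrays, and its E70 and E60 arrays overlapped, with a log2 change of -0.47 (SE 0.56, limma adjusted p = 1). Its change for E60 against E50 was -1.39 (SE 0.56, limma adjusted p = 0.127), without overlap, and its other probe set, below background on every array, was called at -2.82 (adjusted p = 0.0491).

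HAPLN1, the link protein that ties aggrecan to hyaluronan, lay higher at E70 on every array, though short of the threshold. Its brightest probe set had signals of 786, 373 and 510 at E50, 988, 816 and 1011 at E60, and 4826, 3207 and 3269 at E70. All 3 E70 arrays lay above all E60 arrays in both of its probe sets, by 1.98 (SE 0.33) and 2.41 on the log2 scale, with limma adjusted p = 0.0791 and 0.715. For the brightest probe set the adjusted p was 0.034 without dim probe sets, 0.00377 with a trended robust prior, 0.0281 with E60 and E70 alone and 0.0475 without E50 replicate 1. Over its other alternatives it stayed above 0.05, at up to 0.715. Between E60 and E50 the brightest probe set changed by 0.82 (SE 0.33, limma adjusted p = 0.13), without overlap. This was called after median centring (adjusted p = 0.0216), with the trended robust prior (0.0486) and without E50 replicate 1 (0.0387), and in its other alternatives the adjusted p reached 0.409.

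SOX9, the transcription factor that sets the chondrocyte fate, had 122, 261 and 20.7 at E50, 148, 156 and 18.5 at E60, and 92.1, 189 and 89.5 at E70. The stages overlapped, with a change of 0.62 (SE 1.13, limma adjusted p = 1) for E70 against E60. COMP, a cartilage oligomeric protein also found in tendon, was above background on 1 array at E70 and on 3 at E60, with a change of -2.11 (SE 0.97, adjusted p = 0.698) in its brightest probe set and 0.20 in its other. COL11A1, a minor fibril collagen, was above background on 1 array at E70 and 2 at E60, with a change of -0.39 (SE 1.41, adjusted p = 1). Its change for E60 against E50 was 0.11 (limma adjusted p = 0.965), and 1.92 without E50 replicate 3 (adjusted p = 0.0442). With all arrays and brightest probe sets, no measured defining gene was called in either step, which does not show that they were unchanged. COL9A1 and MATN1 had no probe set under their single symbol.

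**Figure D3:**
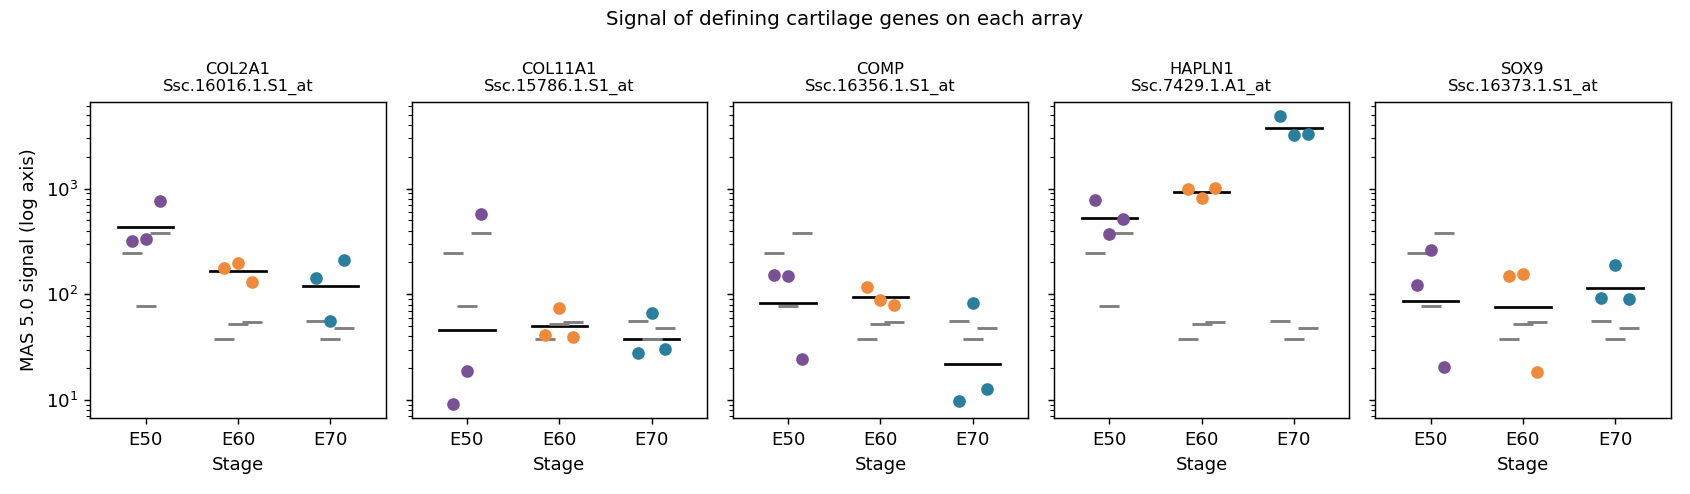
MAS 5.0 signal (log axis) of 5 defining cartilage genes on the 9 arrays by stage, each by its brightest probe set. Points are arrays, black lines geometric means and grey dashes array background. HAPLN1 lies between 3207 and 4826 at E70, above all its E60 arrays, and the COL2A1 arrays of E70 and E60 overlap.

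Over the wider cartilage list, 18 of 59 genes other than the 4 were measured, 7 matrix genes and 11 chondrocyte regulators. In E70 against E60 limma called 0 higher and 0 lower, and the median log2 change was -0.15, beside 0.05 over all genes. For E60 against E50 it called 0 higher and 1 lower, with a median of -0.19 beside -0.18. Over all probe sets 7.85% were called higher and 10.6% lower in this step. The called gene was PRELP, a leucine-rich matrix protein, at -2.81 (SE 0.78, limma adjusted p = 0.0444). PRELP was above background on 1 of 3 arrays at either stage, and 11 of 15 alternatives lost the call. The summed signal of the 18 genes lay between 9689 and 13652 at E50, 10819 and 11427 at E60, and 14815 and 16605 at E70. Bright genes led this sum, with geometric means at E60 and E70 of 4687 and 5515 for PTHLH, 934 and 3698 for HAPLN1, and 1528 and 2780 for ZNF219. For E70 against E60, 8 of the 18 had changes above zero. At E50, E60 and E70, 2, 1 and 5 of the 18 were not above background on any array.

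Genes that build, bind and cut aggrecan were set beside ACAN. No call was made for E70 against E60 among 8 measured genes of the hyaluronan complex, 11 of chondroitin sulfate synthesis and 11 of aggrecan cleavage, with median changes of -0.03, -0.16 and -0.03. Changes were above zero for 3, 4 and 5 of them, so the medians do not show that each gene was level. Of genes named after their values were seen, HAS3 was higher by 1.51 without overlap (limma adjusted p = 0.0631). MMP13 had a geometric mean of 487 at E60 and was below background on every E70 array (limma adjusted p = 0.172). For E60 against E50 no call was made in the hyaluronan complex. In chondroitin sulfate synthesis 0 were higher and 1 lower, SLC35B2, the carrier of the sulfate donor into the Golgi, at -2.43 (SE 0.30, limma adjusted p = 0.00337). Among the cleavage genes 0 were higher and 3 lower, beside 7.85% higher and 10.6% lower over all probe sets. These were MMP2, a gelatinase (-1.47, limma adjusted p = 0.00913), MMP3, stromelysin (-1.91, adjusted p = 0.0289), and CTSD, a lysosomal protease (-0.94, adjusted p = 0.0324). Median centring ended all 3 calls, at -0.70 for MMP2 (adjusted p = 0.0577), -1.14 for MMP3 (0.0917) and -0.17 for CTSD (0.633). MMP3 kept its call in 6 of 16 alternatives. Leaving out E60 replicate 1 or 3 or E70 replicate 1 or 3 was among those that ended it, as was its next brightest probe set, at 0.71 (adjusted p = 0.776). CTSD lost its call in 9 of 16, among them those without any 1 array of E60 or E70.

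Of the C1q and TNF family of C1QTNF3, 11 other genes were measured. Between E70 and E60, 0 were higher and 2 lower in E70, beside 0.0833% and 0.338% over all probe sets. C1QTNF6 changed by -1.81 (SE 0.24, limma adjusted p = 0.0357), with 0.34 and 1.66 in its other probe sets, and C1QC, a subunit of complement C1q made by macrophages, by -1.73 (SE 0.23, adjusted p = 0.0309). Leaving out any 1 array of E60 or E70 ended both calls, at adjusted p of 0.126 to 0.167 for C1QC. For E60 against E50, where C1QTNF3 was higher, 1 was higher and 2 lower, beside 7.85% and 10.6% over all probe sets. C1QTNF2, of the same family, changed by -2.29 (SE 0.24, limma adjusted p = 0.00215) and C1QC by -1.49 (SE 0.23, adjusted p = 0.00667, 0.0571 after median centring). The gene called higher was C1QA, which was below background on all E50 arrays and has no fold.

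Beside MGP, 14 genes of the Gla proteins and of mineralisation control were measured, and 1 was higher and 2 lower for E70 against E60. Over all probe sets 0.0833% were called higher and 0.338% lower in this step. IBSP, bone sialoprotein of early mineralising matrix, had geometric means of 189 at E70 and 10397 at E60, a log2 change of -5.79 (SE 0.26, limma adjusted p = 0.00054), and stayed called in the 16 alternatives run. SPP1, osteopontin, an inhibitor of crystal growth, averaged 8965 at E70 and 48543 at E60, a change of -2.44 (SE 0.20, limma adjusted p = 0.00468). BMP4, a growth factor of tooth and bone, was higher by 1.79 (SE 0.26, limma adjusted p = 0.0447), a call that 11 of 16 alternatives ended, among them those without any 1 array other than E50 replicate 3. For E60 against E50, 2 were higher and 1 lower, beside 7.85% and 10.6% over all probe sets. IBSP changed by 2.37 (SE 0.26, limma adjusted p = 0.00241), PROS1, the vitamin K dependent protein S, by 1.06 (SE 0.21, adjusted p = 0.0145) and VKORC1L1, which recycles vitamin K, by -1.46 (SE 0.39, adjusted p = 0.0389), with 0.15 in its other probe set. VKORC1L1 kept its call in 6 of 17 alternatives. Its other probe set, median centring (-0.69, adjusted p = 0.249) and leaving out any 1 array other than E50 replicate 1 or E70 replicate 2 were among those that ended it. PROS1 lost its call in 3 of 16, with the compared stages alone and without E60 replicate 1 or 2.

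ITGB1, the integrin chain reported as a partner of SCRG1, changed by -0.06 for E70 against E60 and by 0.77 for E60 against E50, with no call in either step. The other partner, BST1, had no probe set under its single symbol.

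The profiles of the 4 genes over the 9 arrays were alike to different degrees. Pearson's r of log2 signal was 0.97 for SCRG1 with MGP, 0.94 for ACAN with C1QTNF3, 0.92 for ACAN with MGP, 0.84 for ACAN with SCRG1, 0.82 for C1QTNF3 with MGP and 0.68 for SCRG1 with C1QTNF3, with ACAN taken by its brighter probe set. Over the 6 arrays of E60 and E70 the same pairs gave 0.968 to 0.997. Arrays of a stage share that stage, so these are descriptions of the order of the stages.

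The 5 profiles most like each of the 4 were sought among 5613 genes above background on all arrays of at least 1 stage. None was in the cartilage list, but only 18 genes of that list were measured, so nothing is read from this. For MGP they were the fatty acid binding proteins FABP4 (r = 0.998) and FABP5 (0.994), the cardiac actin ACTC1 (0.992), the chemokine CXCL12 (0.992) and the hormone STC1 (0.991). For SCRG1 they were OAZ1, an inhibitor of polyamine synthesis (0.997), MYLPF, a myosin light chain of fast muscle (0.997), TMEM59 (0.990), and the matrix proteins BGN (0.989) and SPARC (0.986). After quantile normalization r with SPARC was 0.53, and after median centring r with TMEM59 was 0.61.

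For C1QTNF3 the closest genes were THBS2, a matricellular protein (0.984), ASPN, a leucine-rich matrix protein of the periodontal ligament (0.981), IBSP (0.980), NPG4, a protegrin of pig neutrophils (0.978), and PTGFR, the prostaglandin F receptor (0.966). All 5 had, like C1QTNF3, their highest signals at E60. For ACAN they were FOS, an immediate early transcription factor (0.987), VCAM1, an adhesion molecule (0.986), the kinase NUAK1 (0.979), ACP5, the acid phosphatase of osteoclasts (0.979) and CKAP4 (0.976). With either scaling, r lay between 0.791 and 0.985 for these 5 genes with ACAN and between 0.958 and 0.983 for the 5 with C1QTNF3.

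**Figure D4:**
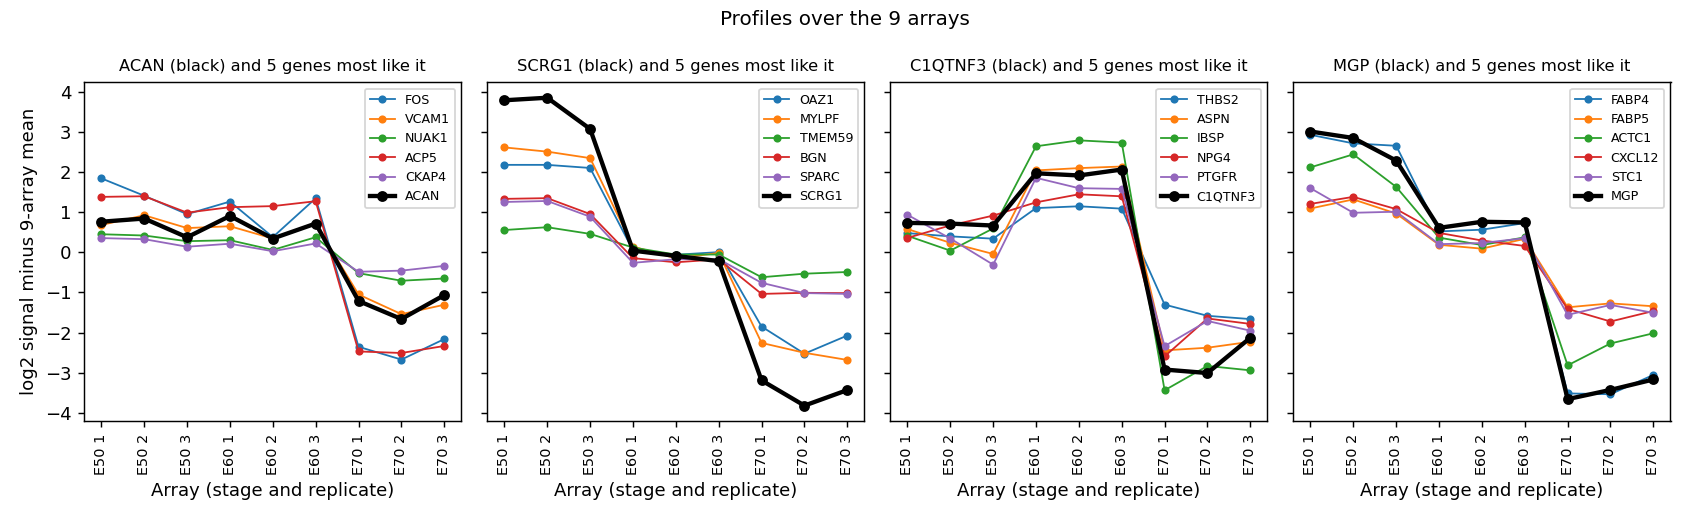
log2 signal minus the 9-array mean (y axis) on each array (x axis) for ACAN, SCRG1, C1QTNF3 and MGP in black and the 5 genes most like each in colour. MGP and SCRG1 step down at E60 and again at E70, C1QTNF3 and its 5 genes peak at E60, and ACAN, as deposited, is level until E70.

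Markers of other cells moved over the same stages. The bone list had summed signals between 188690 and 223818 at E50, 123935 and 125482 at E60, and 52691 and 58118 at E70, with 2 of 10 genes lower and 0 higher for E70 against E60 (IBSP and SPP1) and 2 of 10 not above background on any E70 array. SPARC led these sums, whose geometric mean was 150959 at E50, 59630 at E60, and by E70 35828. This probe set changed by -1.34 for E60 against E50 and -0.735 for E70 against E60, and the other SPARC probe set by -0.21 and -0.37. ALPL, a phosphatase of mineralising cells, and DLX5, a transcription factor of bone and tooth, named after their values were seen, lay higher on every E70 array than on any E60 array without a call (1.09 and 1.06, limma adjusted p = 0.173 and 0.169). The skeletal muscle sums lay between 14578 and 16871 at E50, 5507 and 5985 at E60, and 2979 and 3387 at E70. Of its 24 genes, 12 were lower and 0 higher for E60 against E50, beside 10.6% lower over all probe sets. These calls and the sums of the lists are as deposited. Over all probe sets, median centring turned 2552 lower calls for this step into 911. For E70 against E60, beside 0.338% lower over all probe sets, 2 were lower, MYLPF (-2.47, limma adjusted p = 0.00613) and MYL1 (-2.42, adjusted p = 0.0251). Of the 24, 7 were not above background on any E70 array. Macrophage sums lay between 5304 and 6630 at E50, 2003 and 2163 at E60, and 868 and 1009 at E70, with 2 of 9 lower for E70 against E60, C1QC and MRC1, the mannose receptor (-1.86, limma adjusted p = 0.0182), and 2 of 9 not above background on any E70 array.

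The fibroblast and dental follicle list, a tissue that also makes MGP, split. Its sums lay between 100389 and 107105 at E50, 120049 and 127869 at E60, and 66168 and 69346 at E70, and all 20 genes were above background on some array of each stage. For E70 against E60, 3 genes were lower and 2 higher, beside 0.338% and 0.0833% over all probe sets, and the text names the 4 largest. ASPN changed by -4.44 (SE 0.23, limma adjusted p = 0.00102) and POSTN, periostin, by -2.11 (SE 0.22, adjusted p = 0.0127). The other POSTN probe set changed by -0.91 without a call (limma adjusted p = 0.953). DPT, dermatopontin, changed by 2.89 (SE 0.24, limma adjusted p = 0.00468) and MFAP5, of elastic microfibrils, by 2.41 (SE 0.29, adjusted p = 0.0204). In the tendon list THBS2 was the 1 gene of 5 called, lower by -2.63 (limma adjusted p = 0.00344). In smooth muscle, which makes MGP too, ACTA2 was the 1 of 9 called, at -1.62 (limma adjusted p = 0.0383). Changes were above zero for 4 of the 9. Among these TAGLN, named after its values were seen, was higher by 0.96 without overlap or a call (limma adjusted p = 0.312). The sums of this list lay between 19445 and 20628 at E50, 17961 and 20520 at E60, and 10139 and 13322 at E70.

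In the epithelium list 0 of 10 genes were called for E70 against E60, and the median log2 change was 1.05 beside 0.05 over all genes. Its sums lay between 9590 and 13503 at E50, 13561 and 14498 at E60, and 28339 and 31357 at E70. In endothelium, nerve and tooth germ lists 0 were called lower for E70 against E60, with median log2 changes of -0.83, 0.24 and 1.12. In endothelium 3 of 11 changes were above zero. Its sums lay between 4822 and 5344 at E50, 3978 and 4516 at E60, and 2369 and 2768 at E70. The tooth germ list had 1 called higher, BMP4. The calls of MRC1, MYL1, ACTA2 and MFAP5 ended on leaving out any 1 array of E60 or E70, that of POSTN on leaving out any but E70 replicate 2, and that of MYLPF without E60 replicate 3. ASPN kept its call in all 16 alternatives run, and SPP1, DPT and THBS2 in 15 of 16. The part of these cell types in the values of ACAN, SCRG1, C1QTNF3 and MGP was not tested.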

How the data were processed

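Pooled RNA of additional molar germs was measured on Affymetrix Porcine Genome Arrays. The authors computed MAS 5.0 signals in GeneSpring and deposited these intensity values on a linear scale, 1 per probe set and array. The labels name MAS5 without a version. Of 24123 probe sets, 124 array controls were set aside. Of the rest, 10069 carried 1 platform symbol, 198 several and 13732 none. The log2 of the deposited intensities was used, with a floor of 1.

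All 9 arrays were fitted with limma 3.58.1 in R 4.3.3 (group means for 3 stages, constant prior with 1.47 prior degrees of freedom), and p-values were adjusted by Benjamini-Hochberg over 23999 probe sets. SE values are those of this fit. Each gene of a list was read from its brightest probe set on average. A stage below background on all 3 arrays gives a bound against the geometric mean background, and no fold where both stages are below it. The array number limits precision.

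The genes and the lists were chosen with earlier results of these data known. Named were all probe sets of the 4 genes, the 5 genes most like each over the 9 arrays, the defining cartilage genes, and called genes of the lists without overlap between stages (up to 6 per cartilage list and 4 per other list, by size). For E60 against E50 only those of lists tied to the 4 genes are named. The labels do not say whether the same replicate number in different stages marks paired samples. Deviations from stage means correlated at -0.02 to 0.03 between such arrays, which does not settle it, and the main fit took no pairing. Alternatives were a floor of 16, median centring, quantile normalization, no dim probe sets, a trended robust prior, the compared stages alone, a block, the next brightest probe set, and each array left out. Figures were drawn with Matplotlib 3.10.9 under Python 3.11.15.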

Additional observations from a re-analysis of the deposited data

How the results depend on the processing

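For E70 against E60 the changes kept their sign in all alternatives, at -4.94 to -4.50 for C1QTNF3, -4.24 to -4.00 for MGP and -2.12 to -1.79 for the brighter ACAN probe set. SCRG1 has only its bound there. For E60 against E50 they were 1.24 to 2.05 for C1QTNF3, -2.22 to -1.23 for MGP, -0.15 to 0.77 for that ACAN probe set and -3.90 to -2.88 for SCRG1. Over all probe sets, 4436 calls for E60 against E50 became 2087 with those stages alone and 1758 to 5975 on leaving out 1 array, the fewest without E60 replicate 1 (1758), 2 (1978) or 3 (2211). The 101 calls for E70 against E60 became 67 with median centring, 172 without dim probe sets, 407 with the trended robust prior and 420 with those stages alone. Leaving out 1 array gave 30 to 149, with 30 to 40 without any 1 array of E60 or E70.

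The cartilage list's 1 lower call for E60 against E50, PRELP, was lost with median centring (adjusted p = 0.0971), which gave 3 higher and 0 lower instead. The trended robust prior gave 2 higher and 1 lower, 3 in all. Calls were 2, both lower, with next brightest probe sets, and 0 with quantile normalization, without dim probe sets or with those stages alone (0 to 3 on leaving out 1 array). Its 0 calls for E70 against E60 became 1 higher without dim probe sets or with those stages alone and 2 higher with the trended robust prior (0 to 1 on leaving out 1 array). The replicate number, which may or may not mark paired arrays, was also taken as a block. Calls were then 2811 for E60 against E50 and 9 for E70 against E60, and 0 in the cartilage list in both steps. In this check 5 of 9 arrays correlated best with an array of their own number. The next brightest probe set turned the sign of MMP3 (0.71) and VKORC1L1 (0.15) for E60 against E50 and of C1QTNF6 (0.34) for E70 against E60. The cause of these differences was not tested. Signal over background limits SCRG1, C1QTNF3 at E70 and the dimmer ACAN probe set.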
